A study of Mus musculus with 2 samples.

Results

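Laminins and nidogens are secreted proteins of the basement membrane, the sheet of matrix on which epithelial cells rest. The 9 genes described here are Lama1, Lama3, Lama5, Lamb1, Lamb2, Lamb3, Lamc1, Nid1 and Nid2, taken by symbol from the 35275 genes of the count table, and all 9 were listed there. They were compared between control AML12 cells and senescent AML12 cells. AML12 is a non-transformed mouse hepatocyte line, established from a mouse that carries a human TGF-alpha transgene, and the labels give both groups as male, CD-1 strain, liver and 3 months of age. The control cells were untreated. The senescent cells had received repeated daily exposures to hydrogen peroxide in serum-free medium, with a stronger first dose and recovery in complete medium with dexamethasone after each exposure. RNA of 3 samples per group was pooled, so each group is 1 library.

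Each laminin is a trimer of an alpha, a beta and a gamma chain. The beta and gamma chains join inside the cell, an alpha chain completes the trimer for secretion, and trimers then polymerise on the cell surface, where the end of the alpha chain binds integrins and dystroglycan. Nidogen binds the gamma1 chain of laminin and type IV collagen, and so links the laminin and collagen networks. Adult liver is unusual among epithelial organs in that hepatocytes face a sinusoidal space without a continuous basement membrane, while bile ducts and vessels have one.

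The control library held 28021941 counted reads and the senescent library 25738075. Of the genes in the table, 14383 had at least 10 reads over both libraries and were tested. Values below are raw reads, CPM (reads per 1000000 of a library after TMM scaling, which adjusts for library size and composition), and log2 ratios of senescent over control. The bracketed range is the 95% Clopper-Pearson interval from the split of a gene's reads between the libraries. It covers counting error only, as do the limits set by a count of 0, and leaves out variation between samples. PCR reads are not independent molecules, so the interval may be too narrow even for counting error. A gene was called higher or lower when its log2 ratio was at least 1.5 in size and its interval left out 0. With 1 library per group there was no replicate check, no test could be made and no p-value is given, so each value compares these 2 libraries. Fewer cells that express a gene and less RNA per cell cannot be told apart in such pools.

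Nid1, which encodes nidogen-1, was the only member called, and it was 5.36-fold higher in the senescent library. Lamb3 was 2.06-fold higher and Lamc1 1.43-fold higher, both under the threshold. The most abundant alpha chain, Lama5, and the most abundant beta chain, Lamb2, lay within 1.13-fold of their control levels, in opposite directions. Lama1 and Nid2 had no reads in either library, and Lama3 had few. Of all tested genes, 2.71% were called higher and 5.6% lower (8.31% in either direction), and of the 9 members 7 had enough reads to be tested, 1 was called higher and 0 were called lower. The median log2 ratio of these 7 was 0.67, against -0.02 for all tested genes.

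**Figure D1:**
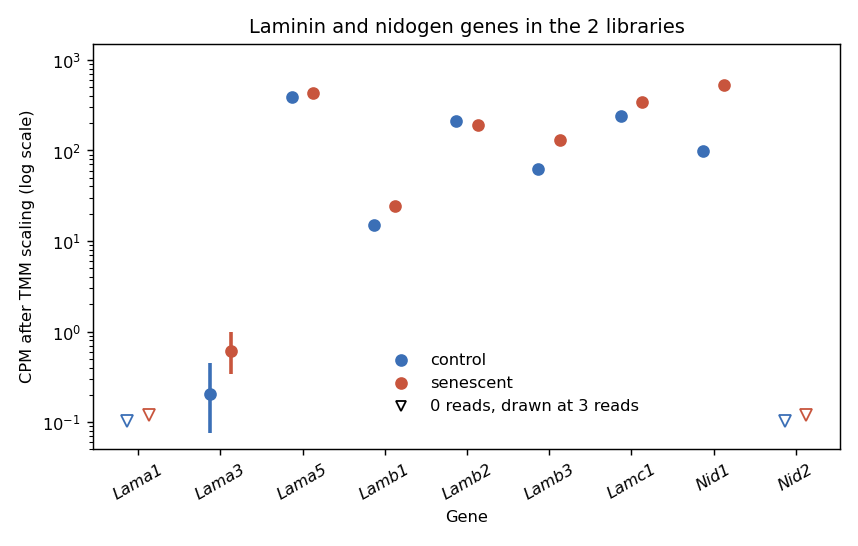
CPM after TMM scaling (log axis) of the 9 genes in the control library (blue) and the senescent library (red), 1 library each. Vertical lines are 95% exact Poisson intervals and are hidden by the points except for Lama3, and open triangles mark 0 reads, drawn at 3 reads. Nid1 rose from a CPM of 99.7 to 534, while Lama5 and Lamb2 stayed near their control levels.

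Promoter sequence is shown for 4 members that mark the range of the data, namely Nid1, the called member, Lamb3, the next in size of change among well-covered members, Lama5, the alpha chain with nearly all alpha-chain reads, and Lamb2, the only member with a negative log2 ratio. RefSeq windows on GRCm38.p6, from 250 bases before to 50 bases after an annotated start, were found for 5 members (Lama5, Lamb1, Lamb2, Lamb3 and Nid1). The windows printed are chr13:13437352-13437651 on the plus strand for Nid1, chr1:193301744-193302043 on the plus strand for the first of the RefSeq starts of Lamb3, which lies inside the GENCODE span of the gene and not at its 5′ end, chr2:180225810-180226109 on the minus strand for Lama5 and chr9:108479612-108479911 on the plus strand for Lamb2. Capitals mark matches, on either strand, to the AP-1 motif TGANTCA, the TATA box TATAAA, the GC box GGGCGG and the CCAAT box CCAAT, and no matches overlapped in these windows.
Nid1: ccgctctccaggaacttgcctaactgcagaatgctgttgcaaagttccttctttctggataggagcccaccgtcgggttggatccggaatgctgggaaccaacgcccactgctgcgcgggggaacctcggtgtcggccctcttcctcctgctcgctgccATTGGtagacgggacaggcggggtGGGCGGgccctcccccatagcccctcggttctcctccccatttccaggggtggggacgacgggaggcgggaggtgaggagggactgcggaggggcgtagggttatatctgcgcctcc
Lamb3: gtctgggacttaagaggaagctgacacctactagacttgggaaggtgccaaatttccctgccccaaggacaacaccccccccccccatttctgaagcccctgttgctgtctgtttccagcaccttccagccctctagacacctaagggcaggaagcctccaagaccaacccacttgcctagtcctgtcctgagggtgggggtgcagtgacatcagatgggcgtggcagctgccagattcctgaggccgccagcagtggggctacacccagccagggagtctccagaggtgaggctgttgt
Lama5: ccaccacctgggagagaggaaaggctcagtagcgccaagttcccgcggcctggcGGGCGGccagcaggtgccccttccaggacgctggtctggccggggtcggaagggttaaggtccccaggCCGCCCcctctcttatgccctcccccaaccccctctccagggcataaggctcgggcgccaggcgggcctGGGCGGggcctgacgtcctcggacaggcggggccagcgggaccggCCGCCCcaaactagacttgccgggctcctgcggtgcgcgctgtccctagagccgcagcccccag
Lamb2: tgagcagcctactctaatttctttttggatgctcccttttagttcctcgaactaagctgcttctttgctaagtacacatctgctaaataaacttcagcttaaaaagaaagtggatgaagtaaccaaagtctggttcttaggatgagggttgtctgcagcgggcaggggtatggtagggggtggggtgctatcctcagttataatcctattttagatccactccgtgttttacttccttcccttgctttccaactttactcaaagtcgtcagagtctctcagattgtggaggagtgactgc
The Nid1 window held 1 GC box, starting at position -67 from the annotated start, and 1 CCAAT box, starting at -91 and read on the opposite strand. The Lama5 window held 4 GC boxes and no other match. The windows of Lamb3 and Lamb2 held none of these motifs, and the same was true of the second Lamb3 window. The Lamb1 window, not printed, held 2 GC boxes and 1 CCAAT box. Among all 32851 mouse windows, 35.7% held a GC box, 37.4% a CCAAT box, 13.6% a TATA box and 7.81% the AP-1 motif. These matches describe letters only, and no binding was measured in these cells.

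Nid1 (ENSMUSG00000005397) spans 13437551 to 13512269 of chromosome 13 on the plus strand (positions here are those of GENCODE M21 on GRCm38), and its longest transcript has 20 exons. Its reads numbered 2898 in control and 13242 in senescent cells, or a CPM of 99.7 and 534. The log2 ratio was 2.42 (2.36 to 2.48), at percentile 99.1 of the tested genes. An antisense gene, Gm48682, shares 143 bases with its exons, 2.06% of their length, and was not analysed here. Nid2, which encodes the second nidogen and lies on chromosome 14, had 0 reads in both libraries. A count of 0 allows up to 3 reads, which is a CPM of 0.103 for control and 0.121 for senescent cells. Rtraf, on the opposite strand with 2416 control and 2165 senescent reads, shares 437 bases with the Nid2 exons, 8.45% of their length. The use of strand is not known, so Nid2 reads from that stretch may not have been counted for Nid2. All nidogen reads counted in these libraries were Nid1 reads.

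Among alpha chains, which carry the main receptor-binding domains, Lama5 dominated. Lama5 (ENSMUSG00000015647, chromosome 2 from 180176373 to 180225859, minus strand) had 11186 control and 10763 senescent reads, or a CPM of 385 and 434. Its log2 ratio was 0.17 (0.14 to 0.21), and 0.07 with total-count scaling. Lama3, which encodes the alpha chain of laminin-332, had only 6 reads in control and 15 in senescent cells, and its ratio of 1.40 on the log2 scale has a broad interval (0.10 to 3.20). Lama1, the alpha chain of the embryonic laminin-111, had 0 reads in both. Of the alpha chains that are not members, Lama4 had 47 and 54 reads (0.42, interval -0.16 to 1.03) and Lama2 had 5 and 2. Per kilobase of exon, Lama5 made up 99.5% of the reads of all 5 alpha chains in control cells and 99.4% in senescent cells.

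The beta chains differed from one another in their ratios. Lamb3 (ENSMUSG00000026639, chromosome 1 from 193207699 to 193343878), the beta chain of laminin-332, had 1830 control and 3209 senescent reads, or a CPM of 62.9 and 129, a log2 ratio of 1.04 (0.96 to 1.12). Lamb1 (ENSMUSG00000002900, chromosome 12 from 31265234 to 31329644), the widely expressed beta1 chain, had 439 and 598 reads, or a CPM of 15.1 and 24.1 (0.67, interval 0.50 to 0.86). Lamb2 (ENSMUSG00000052911, chromosome 9 from 108479736 to 108490530), the beta2 chain known from kidney glomeruli and nerve-muscle junctions, had 6185 and 4724 reads, or a CPM of 213 and 190 (-0.16, interval -0.21 to -0.10). Lamb2 was thus the only tested member whose interval lay below 0, and the other 6 intervals lay above 0. Over all tested genes 34.0% of intervals lay above 0 and 34.6% below (68.6% in all), so at this depth an interval without 0 is common.

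A ratio between chains of the same library does not depend on how the libraries are scaled. Per kilobase of exon, Lamb2 made up 76.0% of beta-chain reads in control cells (counting interval 75.1 to 76.9) and 58.7% in senescent cells (57.7 to 59.8). Lamb3 made up 20.7% (19.8 to 21.5) and 36.7% (35.7 to 37.7), and Lamb1 3.31% and 4.56%. The ratio of Lamb3 to Lamb2 reads per kilobase was 0.272 in control and 0.625 in senescent cells, 2.30 times higher (2.14 to 2.46). The shares depend on the length given to each gene, and with coding length the senescent shares of Lamb3 and Lamb2 became 48.2% and 46.1%, which turns their order. Such a shift between chains is a change in relative mRNA level, and no laminin protein was measured in these files.

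**Figure D2:**
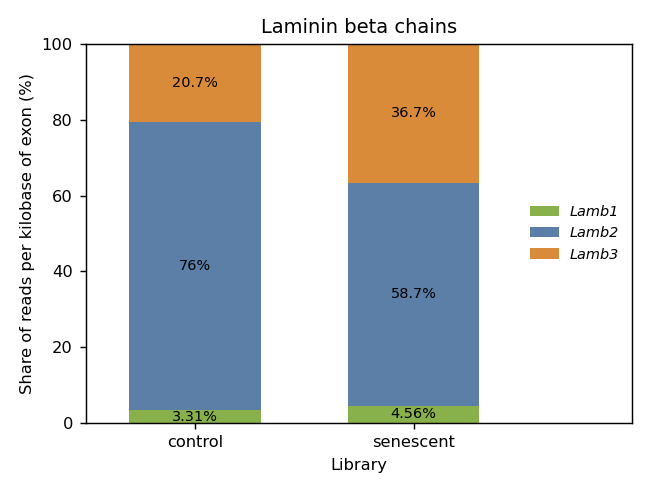
Share (%) of each laminin beta chain among beta chains, in reads per kilobase of exon, with 1 bar per library and bars starting at 0. The Lamb3 share was 20.7% for control and 36.7% for senescent cells, and the Lamb2 share 76.0% and 58.7%.

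Lamc1 (ENSMUSG00000026478, chromosome 1 from 153218922 to 153332786, minus strand), the gamma chain shared by most laminins and the one that nidogen binds, had 6991 control and 8542 senescent reads. The CPM was 240 and 344, and the log2 ratio was 0.52 (0.47 to 0.56). Against its binding partner, Nid1 had 0.494 times the reads per kilobase of Lamc1 in control cells and 1.85 times in senescent cells, 3.74 times higher (3.55 to 3.94).

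Levels of different genes are given as RPKM, the CPM divided by the exon length in kilobases. The control RPKM was 35.0 for Lamb2, 33.8 for Lama5, 29.1 for Lamc1, 14.4 for Nid1, 9.52 for Lamb3, 1.52 for Lamb1 and 0.019 for Lama3. In the senescent library it was 76.9 for Nid1, 41.6 for Lamc1, 38.1 for Lama5, 31.3 for Lamb2, 19.6 for Lamb3, 2.43 for Lamb1 and 0.056 for Lama3. Nid1 went from the fourth to the first place, also with the length of the longest transcript and with coding length. The order of Lamb2, Lama5 and Lamc1 in the control library cannot be resolved without replicates, and with coding length Lamc1 came before Lamb2. Set against the known trimers, laminin-521 (alpha5, beta2, gamma1) had an RPKM of at least 29.1 for each of its chains in control cells and at least 31.3 in senescent cells. The scarcest chain of laminin-511 was Lamb1, at 1.52 and 2.43. Lama3 was the scarcest of the tested members, at 0.019 and 0.056.

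**Figure D3:**
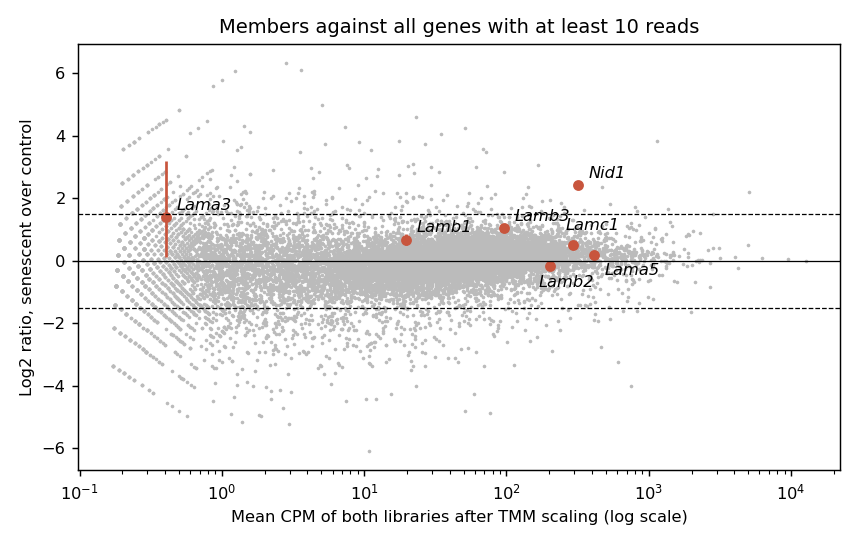
Log2 ratio of senescent over control against the mean level of both libraries (CPM after TMM scaling, log axis) for the 14383 tested genes (grey), with the 7 tested members in red and their 95% counting intervals. Dashed lines mark the threshold of 1.5 in either direction, and Nid1, at 2.42, is the only member beyond it. Ratios include a prior count of 1, which sets the position of grey points with few reads.

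At a lower threshold of 1, Nid1, Lama3 and Lamb3 passed, 3 of the 7 tested members, where 5.09% of all tested genes were higher and 9.98% lower (15.1% in either direction). Lama3 owes its place to 21 reads in all. Lamb3 had a log2 ratio of 0.93 with total-count scaling, which is under this lower threshold. A coefficient of variation of 0.4 between samples was also assumed, which these data cannot estimate. The Nid1 interval was then 0.82 to 4.02 and still left out 0. That of Lamb3 widened to -0.56 to 2.64, and those of the other 5 tested members also held 0. Among the called genes of the lists below, the intervals of Ctsl, Mmp19, Stab1, Ptprc, Csf1r and Cps1 also held 0 under this assumption.

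The partners of laminin and nidogen in the basement membrane did not share one direction. For each list below, the share over all tested genes to set beside the calls is 2.71% higher and 5.6% lower. Of 6 type IV collagen genes, 4 were tested and 1 was called higher. Col4a6 had 57 control and 163 senescent reads (1.73, interval 1.30 to 2.21). Col4a1 and Col4a2, which are transcribed from a shared promoter region and whose products form one protomer, had log2 ratios of 0.39 (0.36 to 0.42) and 1.16 (1.13 to 1.20), with 14915 and 16657 reads for Col4a1 and 8984 and 17162 for Col4a2. Col4a5 had 633 control and 613 senescent reads (0.18, interval 0.021 to 0.35), and Col4a3 and Col4a4 had 0 reads in both libraries. The median of the 4 was 0.78.

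Among 19 basement membrane proteoglycans and linkers, 12 were tested, 0 were called higher and 3 lower, with a median log2 ratio of -0.50. Sparc, which encodes a collagen-binding matricellular protein, fell from 6357 to 1712 reads (-1.66, interval -1.74 to -1.59). Smoc1, a relative of Sparc, fell from 289 to 54 reads (-2.17, interval -2.64 to -1.77), and Fras1, of the epithelial anchoring complex, fell from 158 to 27 (-2.28, interval -2.97 to -1.72). Perlecan, Hspg2, which binds both laminin and nidogen, had 3292 and 2213 reads (-0.34, interval -0.42 to -0.27). Agrin, Agrn, which binds the laminin coiled coil, had 16102 and 13075 (-0.07). Tinagl1, a laminin-associated protein, went from 3706 to 8609 reads, and its log2 ratio of 1.45 was just under the threshold. Of 13 cross-linking and collagen-processing enzymes, 10 were tested and none passed in either direction, with a median of -0.75 and 9 intervals below 0. The transglutaminase gene Tgm2, whose product can cross-link nidogen, had 22696 control and 6912 senescent reads, a difference of -1.49 on the log2 scale that passed the threshold with total-count scaling (-1.59) and upper-quartile scaling (-1.52).

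**Figure D4:**
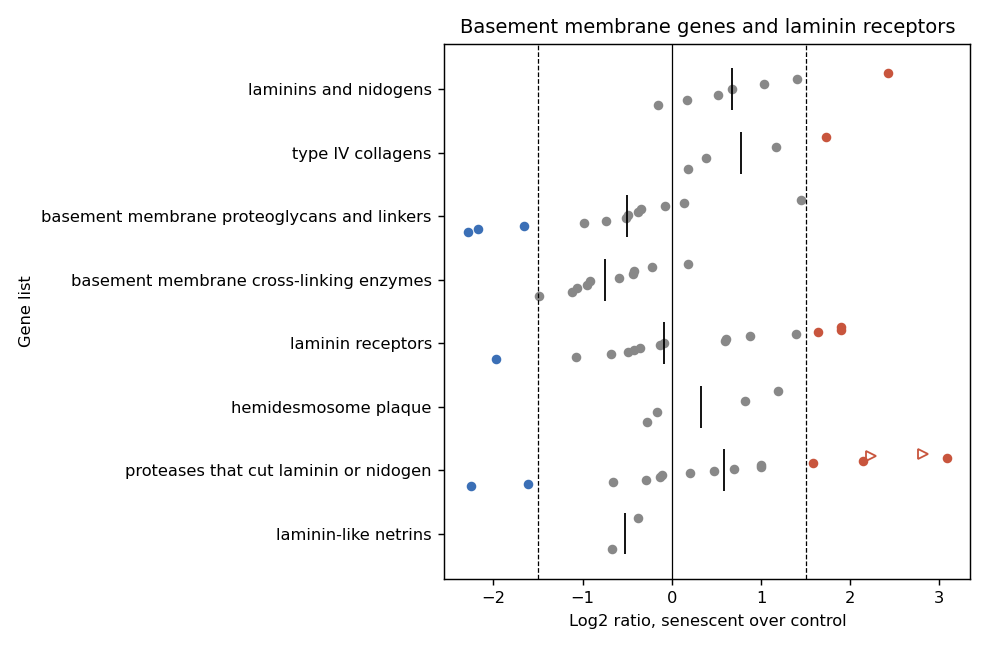
Log2 ratio of senescent over control for each tested gene (circle) of 8 lists, with genes called higher in red, called lower in blue, and the rest grey; dashed lines are the threshold of 1.5 and black bars the list medians. Open triangles are lower bounds for Mmp10 and Plg, which had 0 control reads. Nid1 stands at 2.42 in the top row, and the proteoglycans and the cross-linking enzymes have medians of -0.50 and -0.75.

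The laminin receptors were all tested, and of these 15 genes 3 were called higher and 1 lower, with a median of -0.09. Itga6 and Itgb4 encode the integrin of hemidesmosomes, the junctions that anchor epithelia to laminin. Itga6 rose from 8.26 to 30.9 and Itgb4 from 4.03 to 12.6 in RPKM, with log2 ratios of 1.90 (1.83 to 1.97) and 1.64 (1.53 to 1.76). Sdc3, a syndecan with few reads, rose from 15 to 50 reads (1.89, interval 1.11 to 2.91). The more abundant syndecans were not called and moved both ways. Sdc4 fell from 10918 to 4430 reads (-1.07) and Sdc2 from 1347 to 715 (-0.68), while Sdc1 rose from 6859 to 8945 (0.61). Itga1, the alpha chain of a collagen and laminin receptor, fell from 1062 to 230 reads (-1.97, interval -2.19 to -1.77). Itga2, another integrin alpha chain of this list, went the other way, from 1403 to 3154 reads (1.40, interval 1.31 to 1.49), under the threshold. Itga3 and Itgb1, which form a further receptor for alpha5 and alpha3 laminins, had log2 ratios of 0.88 (0.84 to 0.91) and 0.60 (0.57 to 0.63). Dystroglycan, Dag1, had 6487 and 3947 reads (-0.49, interval -0.54 to -0.43). Of 5 hemidesmosome plaque genes, 4 were tested and none passed, with a median of 0.33. Plectin, Plec, had the highest log2 ratio of these, 1.19 (1.16 to 1.22) with 13307 and 25955 reads, and Dst had 0.82. Col17a1 had 13 and 9 reads (-0.28) and Krt5 8 and 6 (-0.16), both with intervals that held 0. Krt14 had 0 and 2 reads.

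Of 23 protease genes whose products can cut laminin or nidogen, 16 were tested, 5 were called higher and 2 lower, with a median of 0.59. Over all tested genes, 2.71% were called higher and 5.6% lower. Mep1a, which encodes meprin alpha, a protease that degrades nidogen, rose from 14 to 56 reads (2.15, interval 1.37 to 3.19). Mmp13 rose from an RPKM of 1.74 to 14.8 (3.08, interval 2.83 to 3.36). Ctsl, a lysosomal cathepsin, had a log2 ratio of 1.58 that was 1.47 with total-count scaling. Mmp10 and Plg had 0 control reads and only 12 and 18 senescent reads. Both are among the 5 called higher, and both entered the median of 0.59. They reached the minimum of 10 reads through the senescent library alone, so the filter fixed their direction. Set against a floor of 3 control reads, they were 4.69-fold and 7.04-fold higher. These folds leave out counting error of the senescent reads. The lower interval ends were 1.70 for Mmp10 and 2.37 for Plg on the log2 scale. Adamts1, which cuts nidogen-1, fell from 4108 to 736 reads (-2.25, interval -2.37 to -2.14), and Mmp19, which cuts nidogen-1 and laminin, fell from 339 to 94 (-1.61, interval -1.97 to -1.29). Bmp1, which trims laminin-332 chains, had 3669 and 3599 reads (0.20, interval 0.14 to 0.27). Nid1, Col4a6, Itga6, Itgb4, Sdc3, Mmp10, Mmp13, Ctsl and Plg also stand among the higher matrix genes that the study listed from these same libraries, so their direction here is not independent evidence.

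Cells other than hepatocytes also make nidogen-1 and laminins, so markers of other liver cells were read in the same libraries. Of 11 stellate cell and fibroblast markers, 7 were at or under 3 reads in both libraries, and Col1a2, Col3a1, Acta2 and Lum were at 0. The summed level of the list was a CPM of 1.03 for control and 1.05 for senescent cells. Both tested markers of this list were called, in opposite directions and on few reads. Rgs5, a pericyte gene, went from 3 to 16 reads (2.28, interval 0.84 to 5.07), and Col1a1, of type I collagen, from 21 to 1 (-3.29, interval -9.53 to -1.53). The 7 endothelial markers summed to a CPM of 28.6 and 10.5, nearly all of it Stab1, the 1 tested marker, which was called lower (827 and 246 reads, -1.52). Pecam1 had 4 reads in each library and Cdh5 0 and 1. The 8 macrophage markers summed to a CPM of 193 and 82.1, nearly all of it Cd14 (5551 and 1879 reads, -1.33), with Adgre1, Clec4f, Marco and Vsig4 at 0. Against the fall in that sum, 2 of the 4 tested macrophage markers were called higher and 0 lower, with a median of 1.01. These were Ptprc, which rose from 27 to 76 reads (1.68, interval 1.07 to 2.41), and Csf1r, which rose from 15 to 40 (1.58, interval 0.76 to 2.61).

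Markers of epithelial liver cells also moved both ways. The 6 cholangiocyte markers summed to a CPM of 1899 and 1428, and of the 5 tested 1 was called higher and 0 lower, with a median of -0.03. Cftr, a chloride channel gene, rose from 44 to 176 reads (2.20, interval 1.75 to 2.74). Krt7 had a log2 ratio of -1.43 and Spp1 of -1.04, while Sox9 had 0.54 and Krt19 -0.03 (22885 and 19177 reads), and Epcam had 0 and 1 reads. All 10 hepatocyte markers were tested, 1 was called higher and 2 lower, with a median of 0.08. Alb, which encodes albumin, fell from 32076 to 2917 reads (-3.23), and Apoa1, an apolipoprotein gene, fell from 2026 to 197 (-3.13). Cps1, a urea cycle gene, rose from 19 to 55 reads (1.71, interval 0.99 to 2.60). Hnf4a, a hepatocyte transcription factor, had 8187 and 7705 reads (0.14), and Apob and Ttr had log2 ratios of 0.41 and -0.91. The part of these marker differences in the values of the 9 genes was not tested.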

How the data were processed

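RNAseq was measured in 1 library of control and 1 library of senescent AML12 cells, each from pooled RNA of 3 samples. The authors deposited raw counts of reads per Ensembl gene. The submitters' processing notes name CASAVA, STAR, DESeq2, edgeR and the build mm10, without versions or roles, and the annotation, counting tool and use of strand are not given in the sources used here, so reads shared with antisense genes cannot be told apart. Columns were assigned by the initials of the sample titles. Of 35275 genes, 34490 were paired with a symbol through GENCODE M21, which also gave positions and exon lengths, and promoter windows came from RefSeq on GRCm38.p6.

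Counts were scaled with TMM (edgeR 4.0.16, R 4.3.3). Log2 ratios with a prior count of 1, Clopper-Pearson intervals, shares per kilobase and plots were made with numpy 2.4.6, scipy 1.17.1, pandas 2.3.3 and matplotlib 3.10.9 under Python 3.11.15. Intervals of ratios and shares between genes of a library use the delta method. A gene needed at least 10 reads over both libraries. Without replicates the quasi-likelihood test was not applicable. The members and lists were chosen with earlier results of these data known. All members are named, and of the other lists the called genes and genes of the same complex or receptor. Tinagl1, Agrn, Hspg2, Tgm2, Plec, Bmp1, Sdc1, Sdc2, Sdc4, Ntn1 and Ntn4 fall outside that rule and were chosen after their values were seen. The same holds for Dst, Col17a1, Krt5 and Krt14. Ntn3 was not analysed here. A few genes of the lists are not reported here. Alternatives were total-count, DESeq2 (1.42.0) and upper-quartile scaling, other minimum reads, prior counts, thresholds, gene lengths and wider intervals.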

Additional observations from a re-analysis of the deposited data

How the results depend on the processing

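The number of members called higher was 1. It was 2 with the smaller prior count tried, when Lama3 passed with 21 reads in all. With a threshold of 1 and TMM scaling it was 3. It stayed at 1 under the other 9 alternatives, and the number called lower stayed at 0 under all 11. The 7 tested members kept the sign of their log2 ratio under every scaling and prior count. Of 35 recomputed ratios, 6 lay outside the counting interval, 5 of them with total-count scaling, which moved the median of all tested genes by -0.11. Gene length moved the shares more than counting error did. With the longest transcript, the Lamb2 share was 70.9% for control and 52.4% for senescent cells, the Lamb3 share 24.2% and 41.2%, the Lamb1 share 4.89% and 6.45%, and the Lama5 share 99.1% and 98.9%. With coding length they were 65.6% and 46.1% for Lamb2, 29.9% and 48.2% for Lamb3, 4.56% and 5.72% for Lamb1, and 99.0% and 98.8% for Lama5. In each case the Lamb2 share was lower and the Lamb3 share higher in the senescent library. No paired analysis was possible because each group has 1 library, and no library could be left out for the same reason. Depth limits Lama1, Lama3 and Nid2, where a difference was not detectable or rests on few reads.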

Other observations

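Netrins share domains with laminin chains, and netrin-4 binds the laminin gamma1 chain. Of 6 netrin genes 2 were tested and none passed. Ntn4 had 1156 and 619 reads (-0.67, interval -0.81 to -0.53), and Ntn1 had 84 and 55 (-0.38, interval -0.90 to 0.13). Lamc1 and Nid1, by comparison, had ratios of 0.52 and 2.42 in the same libraries.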
